A study of Mus musculus with 31 samples.

Results

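The unfolded protein response and the integrated stress response were represented by 10 mouse genes picked by name: Atf4, Atf6, Xbp1, Ddit3, Hspa5, Ern1, Eif2ak3, Trib3, Asns and Chac1, which are 10 of the 21938 protein-coding genes of the GENCODE annotation used here. The rule names the genes and uses no measured value, although earlier results of these data were known when they were chosen. The study overexpressed 13 transcription factors in NIH-3T3 cells and followed open chromatin by ATAC-seq, in which the Tn5 transposase cuts and tags DNA that is not covered by nucleosomes. A single library was examined, that of the parental cells, and NIH-3T3 is an established mouse embryonic fibroblast line that here carried no factor transgene. The labels record 50000 cells, 0.5 µM Tn5 and 12 PCR cycles for this library and no doxycycline, whereas the study's methods give 500 ng/ml for 48 h for its NIH-3T3 lines in general. The other 30 samples of the series, the factor lines and the rtTA3G controls, were not analysed here, so the values are a single baseline with no replicates and no test between conditions.

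Cells meet an excess of unfolded protein in the endoplasmic reticulum (ER) through membrane sensors, the kinase and RNase IRE1 (gene Ern1), the kinase PERK (Eif2ak3) and the tethered transcription factor ATF6. IRE1 splices the Xbp1 mRNA, PERK phosphorylates the translation factor eIF2α, which favours translation of ATF4, and ATF6 is cut in the Golgi to release its active part. PERK shares eIF2α with kinases that answer amino acid shortage and other stresses, and ATF4 with its partner CHOP (Ddit3) raises genes of amino acid supply and of feedback such as Asns, Trib3 and Chac1. XBP1 and ATF6 act on ER chaperone genes, of which Hspa5, coding for BiP, is the classic example.

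All 10 genes were open at the promoter in these cells, where a promoter peak is a called region of open chromatin within 1 kb of an annotated start of the gene. Of all coding genes, 53.7% had such a peak. The height of a peak is given as fold enrichment, the pileup of fragments at the summit plus 1, divided by the expected pileup plus 1. Fold and p-value together fix the fragment number at the summit, so each height carries an exact 95% Poisson interval, which covers counting error of the summit only. The list held 63456 peaks, the lowest summit had 10 fragments and the median peak had 29 fragments and a fold of 6.04. The fibroblast label was checked against markers, and 8 of 8 fibroblast genes had a promoter peak, the lowest being Thy1 (fold 3.41) and Prrx1 (3.65), against 1 of 5 epithelial genes (Krt8, fold 3.25), 1 of 5 leukocyte genes (Spi1, fold 3.22) and 0 of 4 neuronal genes.

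The letters that the stress pathway reads stood in several of these promoters. The ER stress response element (ERSE), read by ATF6 and XBP1 together with NF-Y, was searched as CCAAT and CCACG 9 bases apart, and the CARE core, read by ATF4 with a C/EBP partner, as TGATGNAA, both on either strand. The window ran from 250 bases before to 50 bases after the RefSeq start on GRCm38.p6, and 9 members had a RefSeq promoter. Those 4 promoters that held a stress motif are shown because the peaks of Hspa5, Trib3, Asns and Chac1 covered the matched letters. Each line is read in the direction of the gene, and capitals mark the ERSE in Hspa5 and the CARE core in the others.
Hspa5: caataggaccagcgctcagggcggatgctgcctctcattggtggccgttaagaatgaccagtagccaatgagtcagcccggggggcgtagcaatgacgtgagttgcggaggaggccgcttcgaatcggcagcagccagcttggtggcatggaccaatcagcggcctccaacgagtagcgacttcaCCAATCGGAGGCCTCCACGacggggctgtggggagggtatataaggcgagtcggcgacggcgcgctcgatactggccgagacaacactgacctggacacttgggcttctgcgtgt
Trib3: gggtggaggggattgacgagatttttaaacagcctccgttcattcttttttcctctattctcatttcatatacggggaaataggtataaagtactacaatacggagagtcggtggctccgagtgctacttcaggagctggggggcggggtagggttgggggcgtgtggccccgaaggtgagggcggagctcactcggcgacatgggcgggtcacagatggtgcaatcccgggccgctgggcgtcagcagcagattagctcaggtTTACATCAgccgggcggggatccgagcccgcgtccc
Asns: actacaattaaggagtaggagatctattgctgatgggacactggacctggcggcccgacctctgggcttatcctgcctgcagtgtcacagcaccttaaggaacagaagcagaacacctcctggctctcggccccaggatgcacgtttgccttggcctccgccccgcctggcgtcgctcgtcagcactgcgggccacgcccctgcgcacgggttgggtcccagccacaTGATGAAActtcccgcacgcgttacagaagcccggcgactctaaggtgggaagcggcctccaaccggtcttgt
Chac1: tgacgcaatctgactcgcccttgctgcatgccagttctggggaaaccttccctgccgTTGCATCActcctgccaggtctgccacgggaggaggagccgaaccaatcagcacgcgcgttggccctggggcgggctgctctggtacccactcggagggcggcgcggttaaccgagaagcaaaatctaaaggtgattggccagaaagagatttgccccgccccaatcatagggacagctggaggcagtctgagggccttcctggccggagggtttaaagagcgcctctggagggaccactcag

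An ERSE occurred in 1 of 9 member promoters, that of Hspa5, and in 0.141% of the 21263 coding promoters searched (30 promoters). The Hspa5 match ran from position -65 to -47 relative to the start, and its middle lay 49 bp from the peak summit. The CARE core occurred in 3 of 9 member promoters against 3.6% of coding promoters. In Trib3 it lay at +14 to +21, 42 bp from the summit, in Asns at -23 to -16, 22 bp from the summit, and in Chac1 at -193 to -186, 76 bp from the summit. In this window, the 3 CARE matches were thus in the effector genes and the ERSE was in the chaperone gene. The Xbp1 window lay wholly before its peak, which began 82 bp past the start. Matches of the factor genes Xbp1 and Ddit3 outside the window are given below. None of the 9 promoters matched the second ER stress element (ERSE-II, ATTGG and CCACG 1 base apart; 0.0517% of coding promoters), the UPRE core TGACGTGG (0.705%) or the cAMP response element (CRE) TGACGTCA (2.23%). Counted together, 4 of 9 member promoters held at least 1 of the 5 stress motifs, against 6.67% of coding promoters. A match is a string of letters in this window and was not shown to be bound. The members were named as parts of these pathways and include known targets of the factors that read these motifs. The member shares here and below therefore describe the list and are not independent evidence about these cells.

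**Figure D1:**
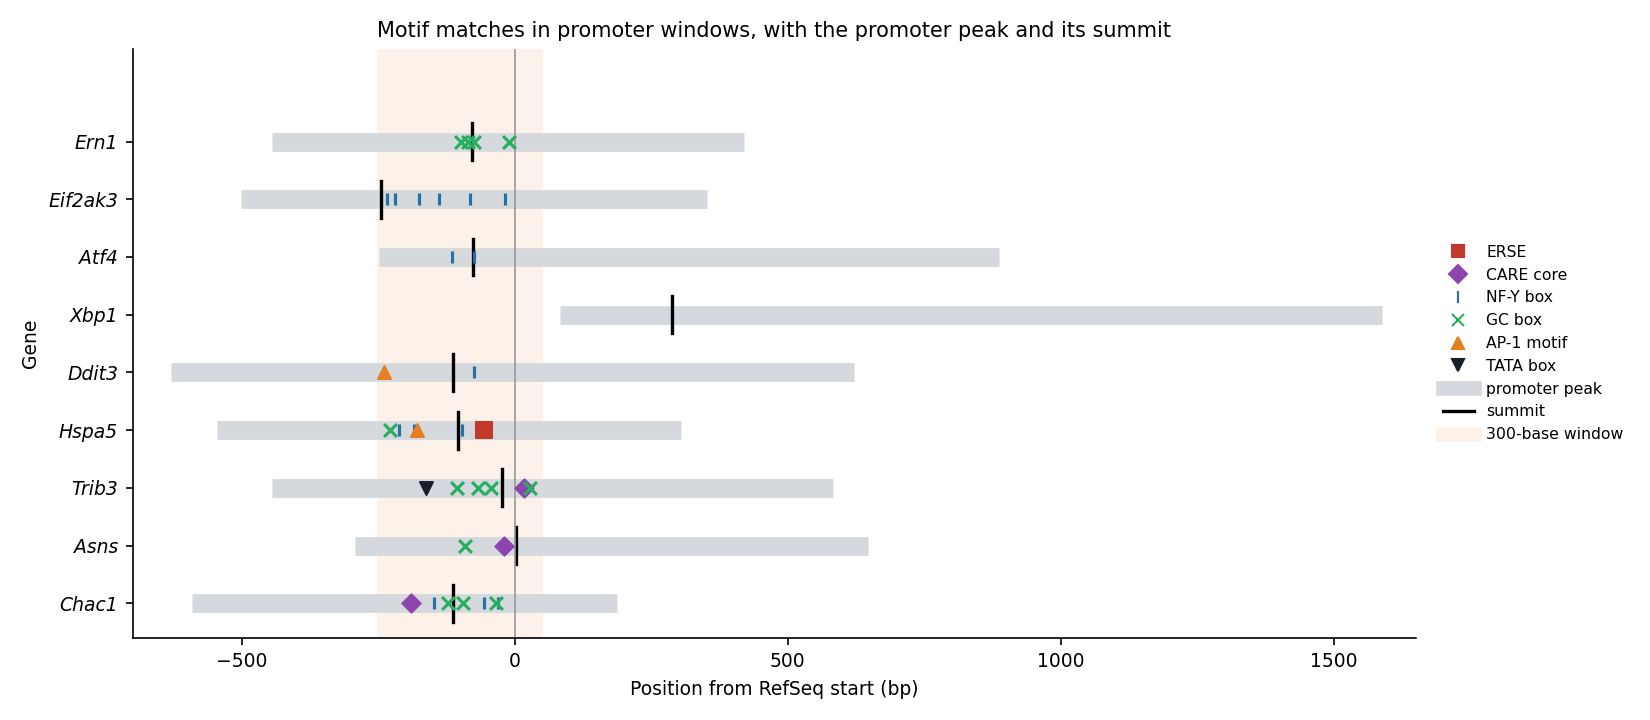
Motif matches in the 300-base promoter windows of 9 members, by position from the RefSeq start in bp, with grey bars for the promoter peak and black lines for its summit. The 3 CARE cores of Trib3, Asns and Chac1 and the ERSE of Hspa5 lie inside the peaks, at 22 to 76 bp from the summits, and the Xbp1 peak begins 82 bp past the start.

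The general promoter motifs differed between members as well. The CCAAT box, bound by NF-Y, occurred in 5 of 9 member promoters against 38.2% of coding promoters, and this count includes the letters inside the Hspa5 ERSE. Eif2ak3 had 6 CCAAT matches, Hspa5 had 4, Chac1 had 3, Atf4 had 2 and Ddit3 had 1. The GC box GGGCGG, bound by Sp1, occurred in 5 of 9 against 46.2%, with 4 matches each in Ern1 and Trib3. TATAAA was found in 1 member, Trib3, at -166 (12.6% of coding promoters), and the AP-1 motif TGACTCA in 2, Ddit3 and Hspa5 (4.66%). Median GC content was 60.7% for the members and 56.3% for coding promoters, and the median ratio of observed to expected CpG was 0.785 against 0.567. All 9 members had a promoter peak, whereas the coding promoters, here and above, include those without one. Values of this window for open promoters alone were not computed. The Eif2ak3 window is shown because it held the most CCAAT boxes of any member, in capitals on either strand.
Eif2ak3: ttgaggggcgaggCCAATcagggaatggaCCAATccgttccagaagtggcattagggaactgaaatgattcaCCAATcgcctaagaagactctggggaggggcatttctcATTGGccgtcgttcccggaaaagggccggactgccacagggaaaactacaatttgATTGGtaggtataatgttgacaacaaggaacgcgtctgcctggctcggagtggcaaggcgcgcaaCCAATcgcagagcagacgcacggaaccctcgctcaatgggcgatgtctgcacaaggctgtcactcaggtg

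The sensors had promoter folds of 10.2 to 13.3. Eif2ak3, the PERK gene, had the member peak with the most fragments, 172 at the summit (interval 147 to 200), in a region of 854 bp at chr6:70844013-70844866 (mm10). Its fold was 13.33 (11.4 to 15.5), which lay above 82.3% of coding promoter peaks, and its fragment number lay above 98.6% of them. The gap between both ranks went with a high expected pileup of 12 fragments, against a median of 5.51 for coding promoters. The Eif2ak3 summit lay 246 bp before the start, the farthest upstream of the members' highest promoter peaks and beside the first of the CCAAT boxes.

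Ern1, the IRE1 gene, had 75 fragments (59 to 94) and a fold of 10.17 (8.02 to 12.7) at chr11:106487377-106488240, with its summit 79 bp before the start. Atf6 was the sole member with 2 promoter peaks. The one over the start, chr1:170867184-170867948, had its summit 1 bp upstream, 59 fragments (44.9 to 76.1) and a fold of 10.94 (8.37 to 14.1). The other, chr1:170868535-170868799, was 265 bp wide, had its summit 864 bp upstream and reached 54 fragments (40.6 to 70.5) and a fold of 10.23. The second peak ended 764 bp from the Atf6 start, and both lay within 1 kb of a start of another gene, Gm9929. The intervals of the Atf6 pair overlapped, so neither stood above the other beyond counting error.

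The transcription factors had lower folds, 8.09 to 9.14, over wider regions of 1135 to 1507 bp. Among the sensors, only Eif2ak3 had a fold interval wholly above that of any factor, namely Atf4 and Ddit3. By fragments the ranges overlapped, 60 to 113 for the factors and 59 to 172 for the sensors. Atf4, the factor translated when eIF2α is phosphorylated, had 89 fragments (71.5 to 110) and a fold of 8.09 (6.52 to 9.94) at chr15:80254936-80256070, 77 bp before the start. Ddit3, coding for the pro-apoptotic factor CHOP, had 113 fragments (93.1 to 136) and a fold of 8.12 (6.7 to 9.74) at chr10:127290164-127291414. Both therefore ranked lower by fold (above 32.7% and 32.9% of coding promoters) than by fragments (74.6% and 87.8%). The expected pileup was 10.1 at Atf4 and 13 at Ddit3, the latter above 97.9% of coding promoters. Expected pileup is the local background of the peak caller, by which the fold is divided, and its part in the order of the folds was not tested.

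Xbp1, whose mRNA IRE1 splices, had the widest promoter peak of the members, 1507 bp at chr11:5520723-5522229, wider than 95.8% of coding promoter peaks. It had 60 fragments (45.8 to 77.2) and a fold of 9.14 (7.01 to 11.7). It was also the sole member whose peak did not reach the RefSeq start, missing it by 82 bp. The summit lay 288 bp past that start in a non-coding part of an exon. GENCODE lists 4 Xbp1 starts, of which chr11:5521005 was the nearest to the summit, which lay 76 bp upstream of it. The summit lay 270 bp past the start at chr11:5520659. It lay 734 bp and 994 bp before those at chr11:5521663 and chr11:5521923. A search of the whole peak found an ERSE at chr11:5520906-5520924, with its middle 14 bp from the summit. Its last base lay 81 bp before the nearest start, chr11:5521005. The match is shown with short flanks, on the plus strand of GRCm38.p6 and with the ERSE in capitals, because it placed the same kind of element under the Xbp1 summit as in the Hspa5 promoter.
Xbp1: accggCCAATCGCGGACGGCCACGacccta

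Among the 10521 distinct highest promoter peaks of coding genes, 8 (0.076%) had an ERSE within the 101 bp around the summit, and Xbp1 was 1 of them. A CARE core in this window occurred in 2 of 10 members, Trib3 and Asns, against 0.589% of these peaks. CCAAT boxes in the summit window occurred in 6 of 10 members, Eif2ak3, Atf4, Xbp1, Ddit3, Hspa5 and Chac1, against 23.4%. GC boxes occurred there in 4 of 10 members, Ern1, Xbp1, Trib3 and Chac1, against 39%. No member had a CRE (1.85%), a UPRE core (0.409%), an ERSE-II (0.057%), a TATA box (1.48%) or an AP-1 motif (4.44%) there.

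Ddit3 held a CARE core too, outside the shorter window. It lay at -301 to -294, 184 bp from the summit and within the promoter peak, and the letters TTGCATCA were the same as those of the Chac1 match. When the window was widened to 500 bases before and 100 after the start, 5 of 9 members held a stress motif against 10.9% of coding promoters, and for the CARE core alone the coding share was 7.04%. The Ddit3 stretch is shown on the plus strand with the CARE core in capitals.
Ddit3: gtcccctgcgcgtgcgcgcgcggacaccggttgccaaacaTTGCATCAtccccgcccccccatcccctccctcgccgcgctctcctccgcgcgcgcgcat

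Hspa5 had the highest promoter fold of the members, 13.38 (11 to 16.1), from 112 fragments (92.2 to 135) at chr2:34771545-34772395. Its summit lay 105 bp before the start, with the AP-1 match upstream of it and the ERSE downstream. The fold lay above 82.6% and the fragments above 87.2% of coding promoter peaks.

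The targets of ATF4 spread over nearly the whole range of the members by fold. Their fragment numbers were 43 to 77, against 43 to 172 for all members. Asns, the enzyme that makes asparagine, had a fold of 13.03 (10.2 to 16.4) from 72 fragments (56.3 to 90.7) at chr6:7692562-7693502, with its summit 2 bp past the start. Chac1, which degrades glutathione, had a fold of 10.33 (8.18 to 12.9) from 77 fragments (60.8 to 96.2) at chr2:119350651-119351429, 113 bp before the start. Trib3, a pseudokinase that restrains ATF4 and CHOP, had the lowest fold, 6.77 (4.94 to 9.06), from 43 fragments (31.1 to 57.9) at chr2:152343478-152344504. By fold, Trib3 lay above 20.9% of coding promoter peaks and Asns above 80.2%, and each carried a CARE core within 42 bp of its summit.

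**Figure D2:**
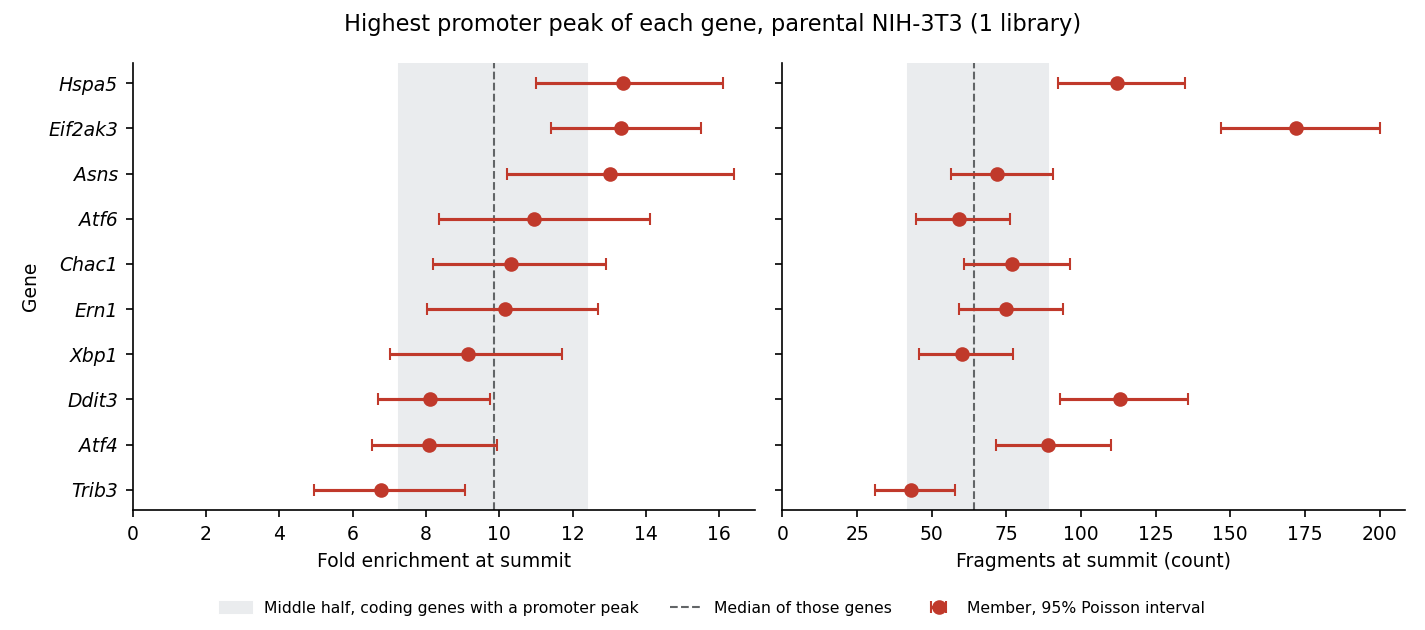
Highest promoter peak of each member as fold enrichment (left) and fragments at the summit (right), with exact 95% Poisson intervals, ordered by fold. The dashed line is the median of the 11788 coding genes with a promoter peak (9.86 and 64) and the grey band spans their quartiles. Hspa5, Eif2ak3 and Asns lie highest by fold and Trib3 lowest, and Eif2ak3 stands apart by fragments.

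In the order of folds, Hspa5, Eif2ak3, Asns, Atf6, Chac1, Ern1, Xbp1, Ddit3, Atf4 and Trib3, no neighbours had separate intervals. Of the 45 pairs of members, 9 had fold intervals that did not overlap, and these set each of Hspa5, Eif2ak3 and Asns above each of Ddit3, Atf4 and Trib3. By fragments 20 of 45 pairs were apart, with Eif2ak3 first, then Ddit3 and Hspa5 close together, and Trib3 last. The share of pairs apart among all coding promoter peaks was not computed. These pair counts therefore do not show whether the members differ more than open promoters in general. The median fold of the 10 members was 10.2 and that of coding genes with a promoter peak 9.86 (quartiles 7.27 and 12.4), with 6 members above and 4 below the coding median. The median fragment number was 76 against 64, and the median width 902 bp against 796 bp, with 8 of 10 members wider than the coding median. As a list, therefore, the members lay near the middle of open coding promoters, at percentile 54.2 for fold, 63.2 for fragments and 62.3 for width. The 4 members with the lowest folds, Xbp1, Ddit3, Atf4 and Trib3, were also the 4 with the widest peaks.

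**Figure D3:**
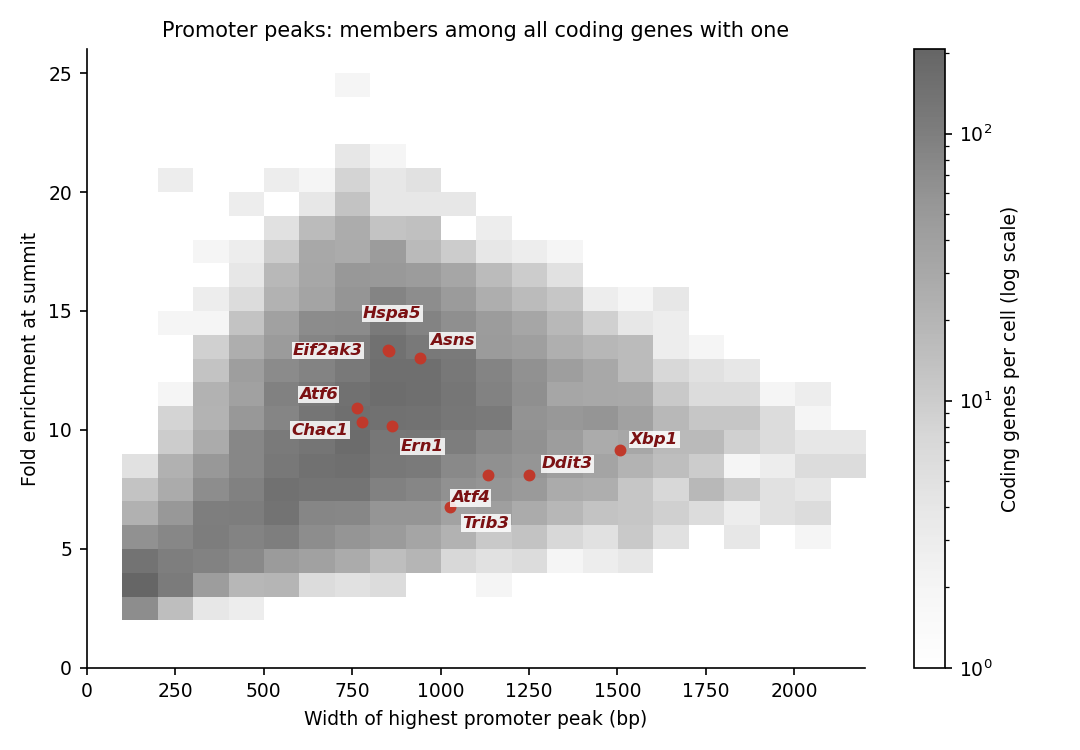
Fold enrichment against width in bp of the highest promoter peak, for the members (red points) over the number of coding genes per cell of the grid (grey, log scale). Atf4, Ddit3, Trib3 and Xbp1 lie in the wide and low part of the members' range, at widths of 1027 to 1507 bp and folds of 6.77 to 9.14, and the other 6 lie at 765 to 941 bp and 10.17 to 13.38.

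Beyond their own promoters, the members had 47 further peaks in the gene body or within 25 kb, 58 in all. Of these, 15 lay within 1 kb of a start of another gene and 32 lay farther than 1 kb from any annotated start and are called distal. A distal peak was near 9 of 10 members, against 67.0% of coding genes and 81.8% of coding genes with a promoter peak, and Ddit3 was the member without one. A distal peak inside the gene body was found in 4 of 10 members, against 32.7% of coding genes and 42.2% of those with a promoter peak, so the members' count was near the background. Those 4 were the sensors Ern1 (3 peaks over a 93.2 kb gene), Eif2ak3 (2 over 60.7 kb) and Atf6 (4 over 163 kb), and Trib3 with 1. The sensors are the longest genes of the list and the factors, with none, among the shortest, so gene length moved with these counts and its part in them was not tested. The distal peaks were low, with a median fold of 4.8 (range 2.64 to 11.3) and 21 fragments, against 5.54 and 25 for all 47192 distal peaks.

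**Figure D4:**
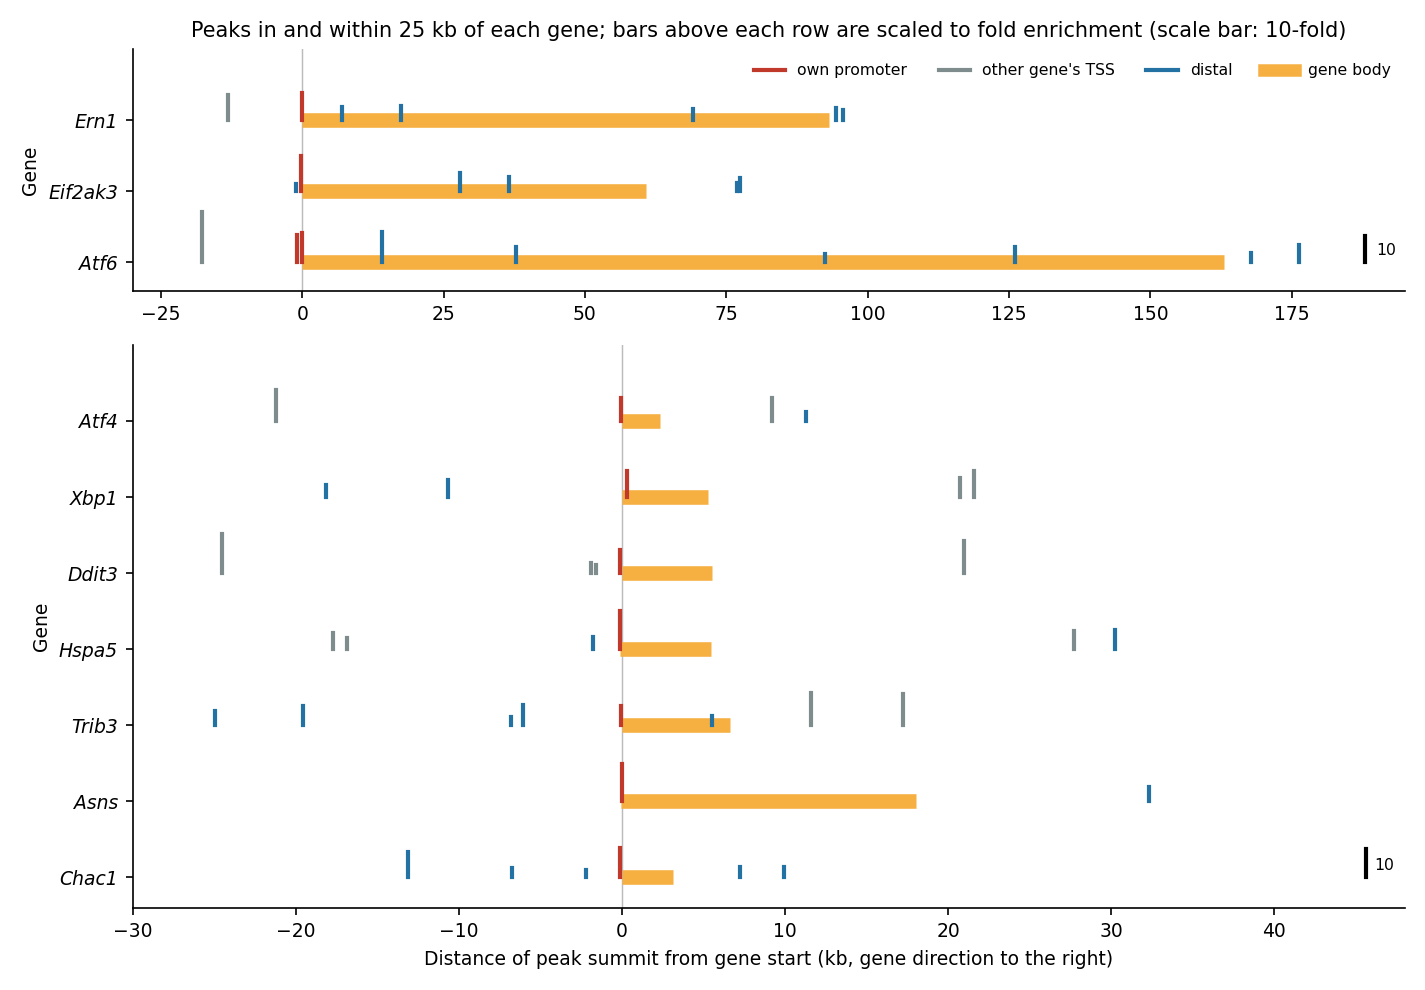
Peaks around the sensors (top) and the other members (bottom) by distance of the summit from the gene start in kb, with the gene body in orange. Bars above each row give fold enrichment on the scale of the black 10-fold bar, red for the own promoter, grey for starts of other genes and blue for distal peaks. The distal peaks inside gene bodies sit in Ern1, Eif2ak3, Atf6 and Trib3, and the grey bar upstream of Atf6, at Dusp12, is the tallest at 18.99.

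The highest distal peak of all members was in an intron of Atf6, 14.1 kb past the start at chr1:170853417-170853899, with 44 fragments (32 to 59.1) and a fold of 11.33. Its interval overlapped that of the Atf6 promoter peak. In Eif2ak3 the highest was also intronic, 28 kb past the start at chr6:70872200-70872643, with 25 fragments and a fold of 6.83. Their 101-bp summit windows are shown on the plus strand because they contrasted in base composition and in letters. The Atf6 window had 25.7% GC and none of the searched motifs. The Eif2ak3 window had 45.5% GC, an AP-1 match, in capitals, and CCAAT letters, left in lower case.
Atf6 intron: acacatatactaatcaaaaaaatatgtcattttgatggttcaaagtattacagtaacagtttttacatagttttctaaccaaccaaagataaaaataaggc
Eif2ak3 intron: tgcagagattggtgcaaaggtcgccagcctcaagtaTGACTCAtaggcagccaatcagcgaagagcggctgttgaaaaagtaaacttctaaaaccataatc

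Stress motifs occurred under 3 of the 32 distal summits. Trib3 had a distal peak 6.04 kb upstream, chr2:152349902-152350211, with 36 fragments and a fold of 7.23, higher than its own promoter fold of 6.77 although within its interval, and its summit window held a CARE core. Hspa5 had a peak 1780 bp upstream with a fold of 4.2, whose window held a CARE core and an AP-1 motif, and one 30.2 kb past the start, chr2:34801966-34802909, with 51 fragments, a fold of 6.76 and a CRE. The CARE core was thus under 2 of 32 distal summits of members and under 1.76% of all distal summits, and the CRE under 1 against 0.206%. AP-1, the commonest of the 9 motifs in distal peaks at 26.4%, was under 3 of 32, and CCAAT under 3 of 32 against 13.8%. The windows with stress motifs are given on the plus strand with the CARE core, CRE and AP-1 letters in capitals.
Trib3 upstream: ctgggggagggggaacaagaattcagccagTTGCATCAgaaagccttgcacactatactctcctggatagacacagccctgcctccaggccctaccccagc
Hspa5 upstream: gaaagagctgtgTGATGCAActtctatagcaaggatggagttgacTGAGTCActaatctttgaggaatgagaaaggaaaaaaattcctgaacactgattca
Hspa5 downstream: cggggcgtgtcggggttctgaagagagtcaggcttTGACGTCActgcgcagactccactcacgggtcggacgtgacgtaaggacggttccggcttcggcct

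For 6 members the tallest peak nearby other than their own promoter belonged to the start of another gene. These were Snord104 near Ern1 (fold 9.51), Dusp12 near Atf6 (18.99, from 104 fragments and above 99.6% of all peaks), Mief1 near Atf4 (10.79), Ccdc117 near Xbp1 (9.22), Dctn2 near Ddit3 (13.75) and Rbck1 near Trib3 (11.36). The fold intervals of Dusp12, Dctn2 and Rbck1 lay wholly above those of Atf6, Ddit3 and Trib3, whereas those of Mief1, Ccdc117 and Snord104 overlapped those of Atf4, Xbp1 and Ern1. All 4 other peaks near Ddit3 were at starts of other genes, with Mars at 11.42 and Mbd6 at 3.39 and 2.76 beside Dctn2. The tallest distal peak near Chac1, chr2:119337703-119338268, lay 13.1 kb upstream with 45 fragments and a fold of 8.78 in a window of 76.2% GC. Asns had 2 peaks in all, its promoter and 1 at chr6:7660844-7660982 with a fold of 4.99.

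The wider pathway held 75 further genes, of which 67 (89.3%) had a promoter peak against the 53.7% of all coding genes, with a median fold of 12.2. ER chaperones and folding enzymes were open in 15 of 16 cases at a median of 12.9, from Manf (9.82) to the oxidase gene Ero1lb (16.9). Genes of ER-associated degradation were open in 12 of 13 at 12.7, from the ubiquitin ligase Syvn1 (6.37) to Derl1 (17.84). The eIF2 kinases, eIF2B subunits and phosphatase subunits were open in 11 of 11 at 12.2, from Eif2b1 (9.25) to Eif2ak2 (15.27), and amino acid transport and synthesis in 10 of 10 at 12.4, from Shmt2 (5.29) to Cth (16.89). Stress-response factors and regulators were open in 11 of 13 with the lowest median fold, 8.12, from the pro-apoptotic Bbc3 (4.89) to Cebpg (15.29). Their median fragment number was 62, against 64 for coding genes with a promoter peak. By fragments the IRE1 partners had the lowest median, 54. Among the members, the fold intervals of the factors Atf4 and Ddit3 lay below that of the chaperone Hspa5, and that of Xbp1 overlapped it. By fragments, the intervals of Atf4 and Ddit3 overlapped that of Hspa5, and that of Xbp1 lay below it. The expected pileup was 10.1 at Atf4 and 13 at Ddit3, against 7.44 at Hspa5, and its part was not tested.

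**Figure D5:**
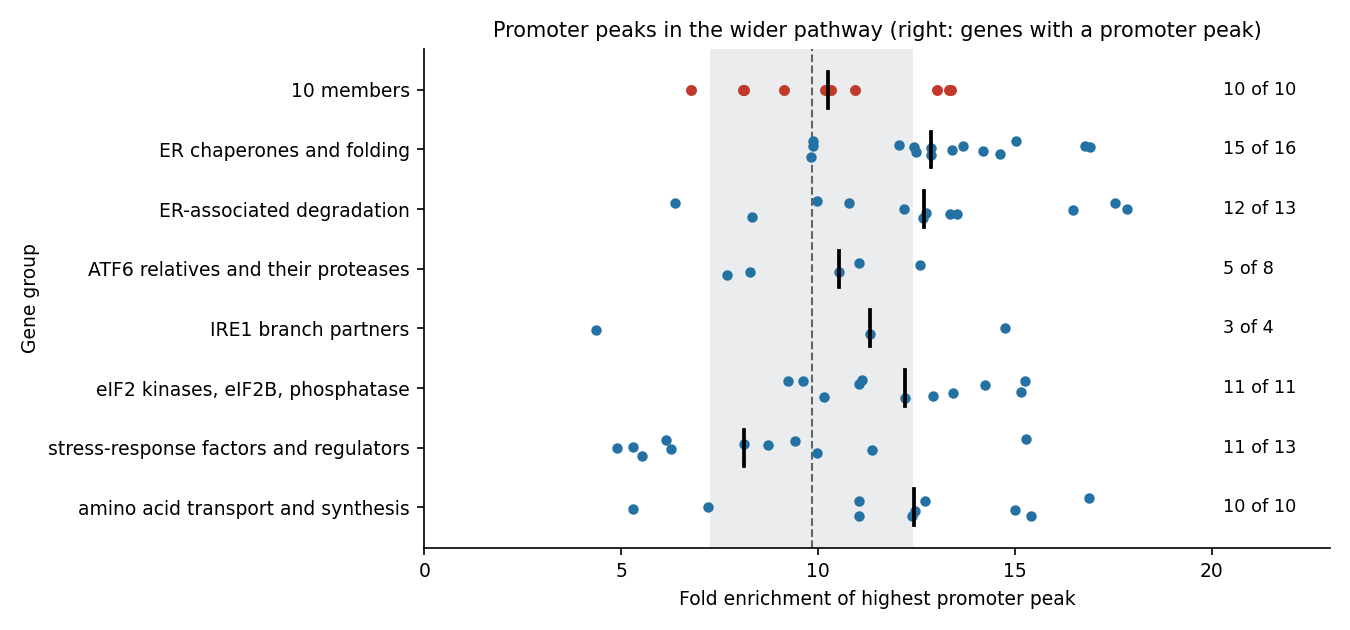
Fold enrichment of the highest promoter peak for the 10 members (red) and the genes of the wider pathway (blue) by group, with black lines for group medians, and the dashed line and grey band for the median and quartiles of coding genes with a promoter peak. The chaperone, degradation, eIF2 and amino acid groups have medians of 12.2 to 12.9, and the stress-factor group has 8.12.

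The ATF6 relatives and their proteases were open in 5 of 8 cases (median 10.5, from Creb3 at 7.7 to Creb3l2 at 12.59), and the IRE1 partners in 3 of 4 (median 11.3, from Map3k5 at 4.36 to Traf2 at 14.76). The 8 genes without a promoter peak were Dnajb9, Derl3, Creb3l1, Creb3l3, Creb3l4, Ern2, Gdf15 and Fgf21. Several of these are known for expression in a few tissues, such as Ern2 in mucous epithelium and Creb3l3 and Fgf21 in liver. Whether this bears on the missing peaks was not tested. Creb3l1 and Gdf15 each had 8 peaks in the gene body or within 25 kb, and Dnajb9 had 1. The gap at Gdf15 was the narrowest, with the nearest peak 1600 bp away, and that at Dnajb9, a BiP co-chaperone, the widest at 28480 bp. A promoter without a listed peak may be closed in these cells. It may also have been below the calling threshold at this depth, not uniquely mappable or filtered out. Which of these applied was not tested, so a missing peak is not by itself the same as closed.

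The same motif search in the 59 genes of the wider list with a RefSeq promoter found an ERSE in 8 (13.6%, against 0.141% of coding promoters). These genes, named after the result was seen, were the chaperones and folding factors Hsp90b1, Calr, Canx, Pdia6, Dnajc3 and Creld2 and the degradation genes Syvn1 and Derl3. Of the 8, 7 had a promoter peak, Derl3 being the exception. This was near the share of the whole wider list, 67 of 75 (89.3%), beside 53.7% of all coding genes. ERSE-II occurred in Dnajb11 and Herpud1 (3.39% against 0.0517%). The CARE core occurred in 5 (8.47% against 3.6%), namely Atf3, Nupr1, Fgf21, Herpud1 and the cystine transporter gene Slc7a11, and Slc7a11 held 2 matches. Herpud1 carried a match of both kinds. Among the members, the ERSE was likewise in the chaperone gene Hspa5 but also under the summit of the factor Xbp1, and the CARE core was in Asns, Trib3, Chac1 and Ddit3 but also under the distal summit upstream of Hspa5. The genes of the list were known targets in part, so these shares describe the list and are not independent evidence about these cells.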

How the data were processed

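The peak list of the parental NIH-3T3 sample (ATAC-seq, 1 library) was the input. Per the submitters' processing notes the authors used STAR 2.5.3a, Picard and MACS2 2.1.1.20160309, with SAMtools and deepTools also listed, on mm10. The methods describe uniquely mapped read pairs, duplicate removal and paired-end peak calling on this library alone, so repeats that cannot be mapped uniquely give no peak. They refer to the ChIP-seq peak calling, in which peaks overlapping input peaks or blacklisted regions were discarded. Whether the list used here was filtered in this way is not stated. A shift of reads for the Tn5 cut is not given in the sources used here. The deposited peak list gives, for each peak, fold enrichment as a ratio, −log10 p-value and −log10 q-value, and an integer display score that was not used. The total read number of the library is not given in the sources used here. The list holds 0 unused columns of per-sample values, and 30 samples were not analysed here.

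Fragments at the summit and the expected pileup were solved from fold and −log10 p under the Poisson model of MACS2. The summit came out whole within 0.02 for 99.997% of peaks, and the step was tested on simulated data. Genes came from GENCODE M21 and promoter sequences from RefSeq (GRCm38.p6). A promoter peak lay within 1 kb of any start, and the highest fold stood for a gene. Distances are from the RefSeq start, or the GENCODE start for Atf6. Motifs were searched as exact letters. Tables and figures were made with pandas 2.3.3, matplotlib 3.10.9, SciPy 1.17.1 and NumPy 2.4.6 under Python 3.11.15. With 1 library no test between groups was possible, and counts are given beside those of all coding genes. Alternatives changed the promoter distance, the peak threshold, the 25 kb limit and the motif window. The text names all members, the highest other peak of each, the highest and lowest gene of each wider group and every gene without a promoter peak. The members and lists were chosen with earlier results of these data known, and the Xbp1, Ddit3, Eif2ak3 and distal sequences were chosen after the values were seen.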

Additional observations from a re-analysis of the deposited data

How the results depend on the processing

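All 10 members kept a promoter peak under the 7 alternatives for promoter distance, transcript type and peak threshold. The count of peaks within 25 kb fell from 58 to 37 within 10 kb and to 36 at a fold of at least 5, and rose to 84 within 50 kb. Gene-body peaks fell from 20 to 10 without those at the gene's own starts, since the latter are left out by construction. The other results stayed within 1.5 times of the reported value. No paired analysis was possible because 1 library was used. The lowest listed summit had 10 fragments, which limits what could be called, and intervals cover counting error only.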
